A study of Homo sapiens with 8 samples.

Results

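HCLS1 and SKAP1 are 2 genes known from blood cells, and each has a paralog with wide expression, CTTN and SKAP2. The 4 genes were found among the 20719 gene IDs of the ribosome profiling counts by matching IDs to symbols. HCLS1 and SKAP1 were chosen by their measured footprints in SMARCB1 Dox against SMARCB1 DMSO (HCLS1 up, SKAP1 down), so the doxycycline values of the SMARCB1 line are given for them as a description, with no test. CTTN and SKAP2 were taken as their paralogs and not for their values. All 4 passed the filter on low counts, which kept 11097 genes, but HCLS1 passed through the 2 SMARCB1 Dox libraries alone.

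The cells were G401, an established line from a rhabdoid tumour of the kidney that has lost SMARCB1, a core subunit of the mSWI/SNF chromatin remodelling complexes. One derivative carries a Tet-On gene for SMARCB1 and the other a Tet-On gene for GFP, and whether either line is 1 clone is not given in the sources used here. Each was given doxycycline at 0.1 μg/ml (Dox) or DMSO for 12 h, which makes the groups SMARCB1 Dox, SMARCB1 DMSO, GFP Dox and GFP DMSO, with 2 libraries each from pooled plates. Ribosome-protected fragments were isolated with RiboLace and counted on coding sequences, so the values are ribosome occupancy, in which a change in mRNA and a change in translation cannot be told apart, nor fewer expressing cells from less RNA per cell.

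Counts on genes ran from 5924443 to 14000039 per library. SMARCB1 had 2553 and 1750 footprints in the SMARCB1 Dox libraries and 0 in the other 6. VIM, KRT8 and KRT18 were abundant, while the epithelial CDH1 and EPCAM had at most 7 and 11 counts. One library stood apart: reads with more than 1 alignment made up 56.4% of GFP Dox replicate 1 and 25.6% to 39.7% of the other 7.

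HCLS1 encodes HS1, the blood cell homolog of cortactin, the product of CTTN. Both bind the Arp2/3 complex and actin filaments, stabilise branched actin and are substrates of tyrosine kinases, HS1 of Lyn and Syk and cortactin of Src. SKAP1 encodes SKAP55, a T cell adaptor that holds ADAP (the product of FYB1) and RIAM (APBB1IP) where integrins are switched on from inside the cell, and SKAP2 encodes its more widely expressed counterpart. All 4 proteins end in an SH3 domain, a fold that binds proline-rich peptides.

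In GRCh38 (GENCODE 44) HCLS1 (ENSG00000180353) lies at chr3:121631399-121660927 on the minus strand and CTTN (ENSG00000085733) at chr11:70398404-70436584 on the plus strand. SKAP1 (ENSG00000141293) lies at chr17:48133442-48430275 and SKAP2 (ENSG00000005020) at chr7:26667068-26995239, both on the minus strand. Their canonical coding sequences span 1461 bases in 13 exons, 1653 in 16, 1080 in 12 and 1080 in 12. No coding base of the 4 genes is shared with another gene's coding sequence.

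Whether footprints of paralogs could be mixed up depends on runs of identical bases. HS1 and cortactin share 56.1% of 428 aligned residues, and SKAP55 and its counterpart 48.5% of 332. At the level of bases the longest identical coding run is 17 in the first pair and 14 in the second, shown in capitals with 16 bases on each side. No exact stretch of 28 bases, about the length of a footprint, is common to the canonical coding sequences of either pair. Coding bases outside the canonical sequences, and matches with differing bases, were not searched.
HCLS1, coding bases 222 to 270: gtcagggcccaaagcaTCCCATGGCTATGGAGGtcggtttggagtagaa
CTTN, coding bases 225 to 273: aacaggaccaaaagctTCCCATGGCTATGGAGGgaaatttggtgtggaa
SKAP1, coding bases 975 to 1020: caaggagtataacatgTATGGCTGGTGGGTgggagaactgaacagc
SKAP2, coding bases 984 to 1029: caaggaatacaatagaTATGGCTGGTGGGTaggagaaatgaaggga

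Of the 1434 coding 28-base stretches of HCLS1, 1131 occurred once in the genome and 1 more than once, and of those of CTTN, SKAP1 and SKAP2, 1249, 783 and 781 occurred once and 0 more than once. The remaining 302, 377, 270 and 272 were not found in the genome sequence, so they could not be checked there for repeats. The stretches were taken from spliced canonical coding sequence, in which those that cross an exon junction are interrupted in the genome by an intron. How many of the remaining ones cross a junction was not counted. The ends of the coding sequences, which hold the SH3 domains, are the more alike part: 69.6% of 56 aligned residues and 70.8% of the bases are identical for HCLS1 and CTTN, and 58.5% of 53 residues and 61.0% of the bases for SKAP1 and SKAP2. They are printed through the stop codon, with the bases identical to the paralog at aligned codons in capitals, to show how the differences are spread.
HCLS1, coding bases 1291 to 1461: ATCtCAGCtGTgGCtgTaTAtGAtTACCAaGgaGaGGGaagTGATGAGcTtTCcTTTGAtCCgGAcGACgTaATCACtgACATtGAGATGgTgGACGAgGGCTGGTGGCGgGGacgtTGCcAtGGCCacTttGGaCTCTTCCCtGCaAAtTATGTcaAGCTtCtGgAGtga
CTTN, coding bases 1483 to 1653: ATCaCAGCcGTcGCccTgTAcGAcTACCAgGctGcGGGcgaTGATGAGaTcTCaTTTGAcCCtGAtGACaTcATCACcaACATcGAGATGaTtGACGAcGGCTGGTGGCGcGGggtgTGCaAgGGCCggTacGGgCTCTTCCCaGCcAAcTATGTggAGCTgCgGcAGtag
SKAP1, coding bases 910 to 1080: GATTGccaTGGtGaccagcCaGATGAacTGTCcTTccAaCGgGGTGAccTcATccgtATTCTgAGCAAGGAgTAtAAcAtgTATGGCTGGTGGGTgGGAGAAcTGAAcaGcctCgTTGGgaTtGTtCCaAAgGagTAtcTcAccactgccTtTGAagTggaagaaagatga
SKAP2, coding bases 919 to 1080: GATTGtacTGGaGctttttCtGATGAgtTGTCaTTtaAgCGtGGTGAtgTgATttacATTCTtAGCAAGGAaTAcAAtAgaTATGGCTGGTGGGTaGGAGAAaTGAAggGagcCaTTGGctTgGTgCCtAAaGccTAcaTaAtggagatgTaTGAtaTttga

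The quantitative PCR primers that the study used for SKAP1 both lie in this end of the gene and are shown for that reason.
SKAP1 forward primer: CAGCCAGATGAACTGTCCTTCC
SKAP1 reverse primer: GGAACAATCCCAACGAGGCTGT
The forward primer matches coding bases 925 to 946 in exon 11 (chr17:48162501-48162522), and the reverse primer is the complement of bases 1016 to 1037 in exon 12 (chr17:48137279-48137300). They match 5 and 6 of the 8 annotated SKAP1 transcripts and 0 SKAP2 transcripts, where the closest stretches differ at 10 and 9 bases.

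Per kilobase of coding sequence, the mean density over the 8 libraries was 257.2 CPM (counts scaled to a common library total) for CTTN, 78.5 for SKAP2, 22.5 for SKAP1 and 2.12 for HCLS1. By this mean CTTN lay above 94.9% of the genes tested and SKAP2 above 82.6%. The mean describes no single group for the other 2 genes: SKAP1 had 28.04 and 58.29 CPM per kb in SMARCB1 Dox and SMARCB1 DMSO but 1.36 and 2.29 in GFP Dox and GFP DMSO, and HCLS1 had 7.86 in SMARCB1 Dox and at most 0.290 in the other groups. In both pairs the widely expressed paralog was the denser gene in each group. By raw count, too, CTTN exceeded HCLS1 and SKAP2 exceeded SKAP1 in each of the 8 libraries.

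HCLS1 was near the limit of detection everywhere except in SMARCB1 Dox. The SMARCB1 Dox libraries had 106 and 92 counts, or 8.87 and 14.6 CPM. The SMARCB1 DMSO libraries had 1 and 6 counts (0.167 and 0.468 CPM), GFP Dox 0 and 2 (0 and 0.296 CPM), and GFP DMSO 8 and 3 (0.658 and 0.208 CPM). Both SMARCB1 Dox libraries thus lay above all the others, and the values of the other 3 groups overlapped one another; the 0 of GFP Dox replicate 1 allows up to 0.496 CPM (3 counts).

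The group means of HCLS1 were 11.7 ± 4.04 CPM in SMARCB1 Dox, 0.317 ± 0.213 in SMARCB1 DMSO, 0.148 ± 0.209 in GFP Dox and 0.433 ± 0.318 in GFP DMSO (SD, n = 2 each). Between SMARCB1 Dox and SMARCB1 DMSO the pooled counts were 198 and 7, or 29.2 to 1 once depth was allowed for. This ratio is a description only, since the same contrast chose HCLS1. The ratio rests on few DMSO counts: without SMARCB1 DMSO replicate 2, which held 6 of the 7, it was 65.0, and without any other library it was 23.2 to 39.2. The fitted difference was 4.98 on the log2 scale (SE 0.82).

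**Figure D1:**
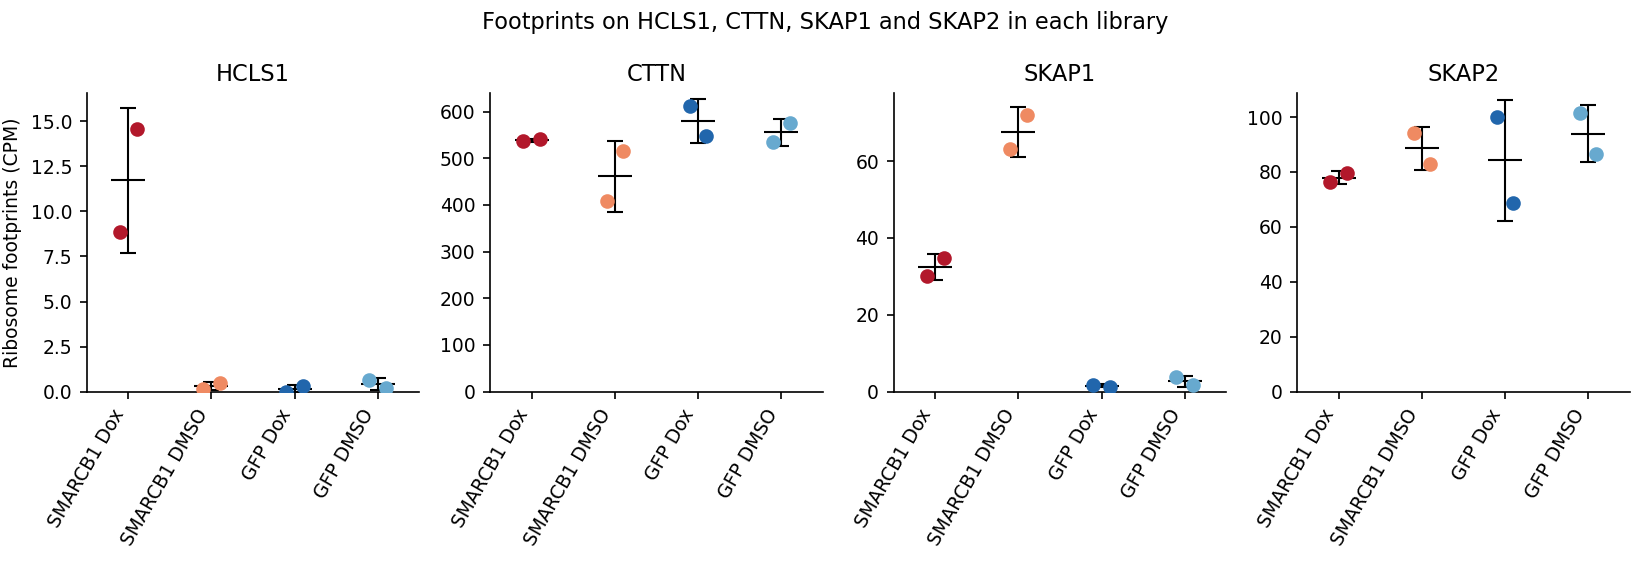
Footprints in CPM (vertical axes, linear from 0, one scale per gene) for HCLS1, CTTN, SKAP1 and SKAP2 in the 4 groups. Points are libraries, horizontal bars are group means and vertical bars 1 SD (n = 2), drawn no lower than 0. HCLS1 stands out in SMARCB1 Dox, SKAP1 is high in both groups of the SMARCB1 line, and CTTN and SKAP2 are at like levels in all groups.

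CTTN was high in every library. It had 536.5 and 540.9 CPM in SMARCB1 Dox, 407.3 and 514.7 in SMARCB1 DMSO, 612.8 and 546.6 in GFP Dox, and 535.3 and 575.0 in GFP DMSO. The lowest value, 407.3 CPM, was that of SMARCB1 DMSO replicate 1, and both SMARCB1 DMSO libraries lay below both SMARCB1 Dox libraries. Group means ran from 461.0 ± 75.9 CPM in SMARCB1 DMSO to 579.7 ± 46.8 in GFP Dox (SD, n = 2 each). The SMARCB1 Dox minus DMSO difference was 0.22 (log2, SE 0.23), less than its own standard error.

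SKAP1 showed its main contrast between the lines. It had 30.1 and 34.9 CPM in SMARCB1 Dox and 63.0 and 72.1 in SMARCB1 DMSO, from 360, 220, 378 and 925 counts. The GFP line gave 1.82 and 1.33 CPM under Dox and 3.70 and 1.60 under DMSO, from 11, 9, 45 and 23 counts. Every library of the SMARCB1 line, induced or not, lay above every library of the GFP line, and within the SMARCB1 line the Dox libraries lay below the DMSO libraries.

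The group means of SKAP1 were 32.5 ± 3.37 CPM in SMARCB1 Dox, 67.6 ± 6.38 in SMARCB1 DMSO, 1.57 ± 0.346 in GFP Dox and 2.65 ± 1.49 in GFP DMSO (SD, n = 2 each). The Dox minus DMSO difference in the SMARCB1 line, for which SKAP1 was chosen, was -1.06 (log2, SE 0.32), or 2.08-fold lower. Leaving out 1 library of that line at a time gave -1.17 to -0.95.

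SKAP2 had 76.3 and 79.6 CPM in SMARCB1 Dox, 94.2 and 83.0 in SMARCB1 DMSO, 99.9 and 68.8 in GFP Dox, and 101.3 and 86.6 in GFP DMSO. The GFP Dox libraries were the furthest apart and spanned all the others but one. Group means ran from 77.9 ± 2.31 CPM in SMARCB1 Dox to 94.0 ± 10.4 in GFP DMSO (SD, n = 2 each). The difference in the SMARCB1 line was -0.18 (log2, SE 0.24).

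The SMARCB1 Dox libraries did not overlap the SMARCB1 DMSO libraries for any of the 4 genes, HCLS1 and CTTN being higher and SKAP1 and SKAP2 lower. With 2 libraries against 2 this is common: 17.3% of all genes tested did so upward and 18.3% downward. At an adjusted p below 0.05 and a fold above 2 (edgeR quasi-likelihood, Benjamini-Hochberg over all genes), 2 genes of 11097 were called higher, or 0.018%, and 0 lower, with 552 at an unadjusted p below 0.05. The count depends on the setting: DESeq2 called 26 higher and 8 lower, a fit with a replicate block 9 and 4, and a fit without the filter on low counts 38 and 8. The 2 genes were SMARCB1 itself and ASS1, the argininosuccinate synthase, named after its value was seen, and no count of the members is read from this contrast, which chose 2 of them.

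Doxycycline alone was examined in the GFP line, which the choice of genes had not used. For none of the 4 genes did the GFP Dox libraries lie wholly above or below the GFP DMSO libraries, against 13.1% of all genes upward and 13.2% downward. The differences were -1.37 (log2, SE 1.21) for HCLS1, 0.06 (SE 0.23) for CTTN, -0.74 (SE 0.46) for SKAP1 and -0.16 (SE 0.24) for SKAP2. CTTN, SKAP1 and SKAP2 each had an adjusted p of 1 by edgeR's quasi-likelihood test. HCLS1 is given without a test. It passed the filter through the SMARCB1 Dox libraries alone, and its few counts in the GFP line could hardly give a call. In this comparison 0 genes were called (0%), 240 had an unadjusted p below 0.05, and DESeq2 also called 0. Without the filter on low counts 14 genes were called, and without GFP Dox replicate 2 there were 141, 98 higher and 43 lower.

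The depth of these values sets what they can show. HCLS1 had 2 counts in GFP Dox and 11 in GFP DMSO, a ratio of 0.377 once depth was allowed for. The exact 95% interval of this ratio, 0.0406 to 1.73, covers counting error only and not the spread between libraries. It is given to show how little so few counts can tell, and no test is read from it. For SKAP1 the GFP difference moved from -1.25 to -0.03 when single libraries were left out, the last value being without GFP DMSO replicate 1, which held 45 of its 88 counts. The sign in the GFP line was the same as in the SMARCB1 line, and the difference between the Dox effects of the lines was -0.32 (log2, SE 0.58) for SKAP1. For HCLS1 it was 6.36 (SE 1.41), for CTTN 0.16 (SE 0.33) and for SKAP2 -0.03 (SE 0.35), all given without a test because they hold the contrast that chose 2 of the genes.

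The lines were then compared as the mean of Dox and DMSO in the SMARCB1 line against the same mean in the GFP line. SKAP1 was 23.0-fold higher in the SMARCB1 line (log2 4.52, SE 0.28, adjusted p = 5.008e-08 by edgeR's quasi-likelihood test). By that rule 432 genes passed upward (3.89%) and 384 downward (3.46%), 7.35% of those tested in all, and the libraries of the lines did not overlap for 8.61% upward and 8.95% downward. Leaving out any 1 library gave 4.28 to 4.88. The gap was present without induction, at 4.68 (log2, SE 0.38) under DMSO and 4.36 (SE 0.42) under Dox. SMARCB1 itself had 0 counts in the SMARCB1 DMSO libraries, where SKAP1 was highest. SKAP1 was chosen by the difference between Dox and DMSO in the SMARCB1 line, and this test takes the mean of the same libraries. Its p-value is thus not wholly free of that choice.

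Neither paralog passed this test. SKAP2 differed by -0.10 (log2, SE 0.17, adjusted p = 0.798) and CTTN by -0.19 (SE 0.17, adjusted p = 0.567) in the same edgeR test, and for both the libraries of the lines overlapped. For HCLS1 the value was 2.94 (SE 0.73), with no test, since the SMARCB1 Dox libraries that chose it also set this mean and alone took it past the filter. Split by treatment, it was 6.12 (SE 0.96) under Dox and -0.24 (SE 0.96) under DMSO. Under DMSO the pooled counts of HCLS1 were 7 and 11 and the ratio 0.897, which ran from 0.403 to 1.78 with single libraries left out. These values are a description only, since each holds a group of the contrast that chose HCLS1.

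**Figure D2:**
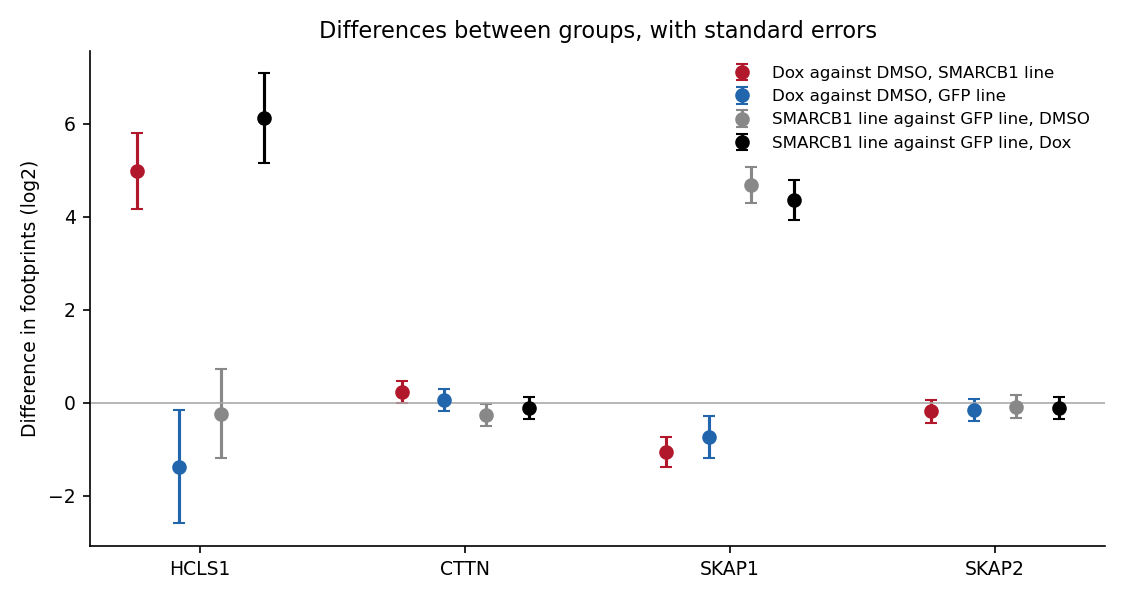
Differences in footprints (log2, vertical axis) for the 4 genes, as points with 1 standard error from the edgeR fit. HCLS1 is high in the differences that hold the SMARCB1 Dox group, SKAP1 differs between the lines under DMSO and under Dox alike, and CTTN and SKAP2 lie within 0.3 of 0 in each.

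A share within a pair does not depend on the scaling of libraries. HCLS1 made up 1.63% (exact 95% interval 1.33 to 1.96) and 2.63% (2.12 to 3.21) of the HCLS1 and CTTN counts in the SMARCB1 Dox libraries. In the other 6 it ranged from 0% to 0.123%, and the exact 95% interval for 0 of 3704 in GFP Dox replicate 1 reaches 0.0995%. Even where HCLS1 was highest, nearly all counts of the pair were on CTTN.

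SKAP1 was a large part of its own pair in the SMARCB1 line. It made up 28.3% (25.8 to 30.9) and 30.5% (27.1 to 34.0) of the SKAP1 and SKAP2 counts in SMARCB1 Dox, and 40.1% (36.9 to 43.3) and 46.5% (44.2 to 48.7) in SMARCB1 DMSO. In the GFP line the shares were 1.79% and 1.90% under Dox and 3.52% and 1.81% under DMSO. The intervals, exact at 95%, cover counting error within a library only and not the spread between libraries. They take each read as a separate count, and whether duplicate reads were removed is not given.

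**Figure D3:**
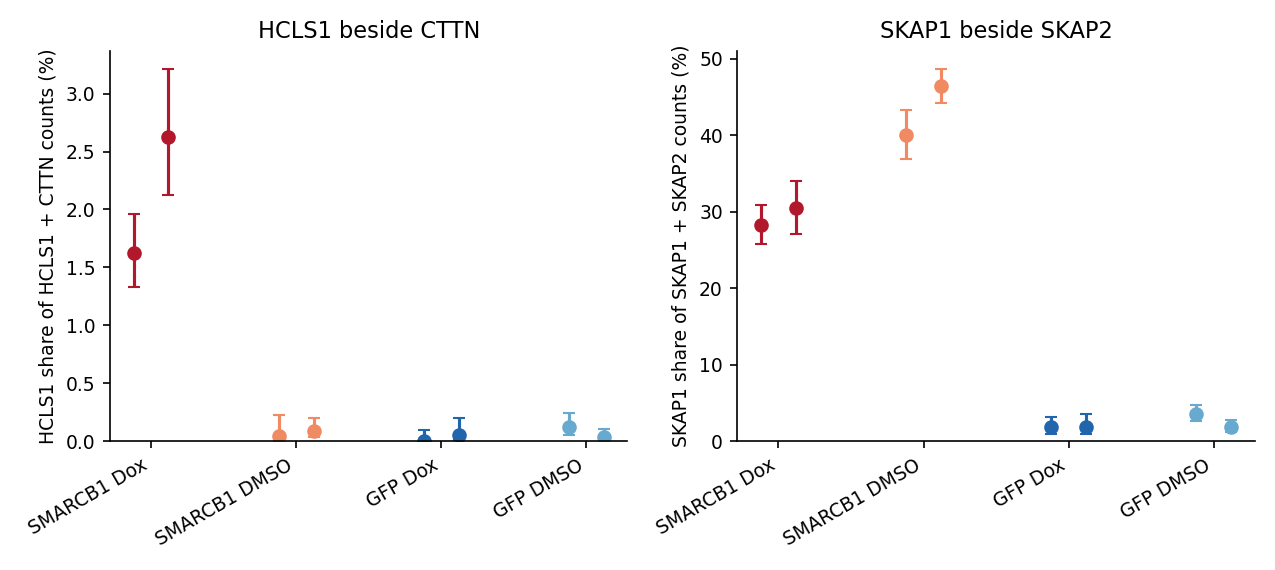
Share of each pair's counts (%, vertical axes from 0, one scale per pair) that fell on HCLS1, beside CTTN, and on SKAP1, beside SKAP2. Points are libraries and bars exact 95% intervals for counting error. HCLS1 passes 1% in SMARCB1 Dox alone, and SKAP1 takes 28.3% to 46.5% in the SMARCB1 line and at most 3.52% in the GFP line.

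The proteins that HS1 and cortactin act on were well covered. All 10 genes of the Arp2/3 complex, which nucleates actin branches, passed the filter, led by ACTR3 at 518.5 CPM per kb. None was called in any of the 3 comparisons, and their medians (log2) were 0.01 for SMARCB1 Dox, 0.15 for GFP Dox and 0.03 between the lines, beside -0.02, 0.02 and 0.00 over all genes. Of 24 nucleation promoting factors and WAVE subunits 18 were tested and 0 called, BRK1 being the densest at 578.2 CPM per kb. The blood cell members of that list were hardly seen: WAS had at most 9 counts in a library and NCKAP1L at most 6.

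Among 28 partners of cortactin and HS1, 24 were tested and 0 were called for either Dox effect. Between the lines 1 of the 24 was called, beside 7.35% of all genes, a share near that background. It was DNM3, higher in the SMARCB1 line, a dynamin that cuts membrane necks, by 1.33 (log2, SE 0.31, adjusted p = 0.011, edgeR), but it was not called without GFP DMSO replicate 1 (adjusted p = 0.0517) or SMARCB1 Dox replicate 2 (adjusted p = 0.0951, log2 1.01). The other dynamins of the list did not follow it. DNM1 was lower in the SMARCB1 line by a log2 value of -0.92 (SE 0.23, adjusted p = 0.017, edgeR), and DNM2 differed by 0.22 (SE 0.16). CTTNBP2NL was higher by 0.68 (SE 0.19, adjusted p = 0.0269, edgeR), and like DNM1 it was under the fold of 2. CFL1, the filament-severing cofilin, was the densest of the list at 3320 CPM per kb. HAX1, named for its binding to HS1, was present in every library at 59.5 to 126.6 CPM and was 0.48 higher in the SMARCB1 line (log2, SE 0.17, adjusted p = 0.0905), which did not pass the test.

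Of 20 tyrosine kinases known to act on these proteins 10 were tested. LYN, the HS1 kinase, was the densest at 167.7 CPM per kb, with 177.0 to 332.4 CPM per library. SYK had 2 counts in all libraries together, and LCK had 7, all in GFP DMSO replicate 1. None was called for either Dox effect, and between the lines 1 of the 10 was called, beside 7.35% of all genes. FYN, which acts on SKAP proteins in T cells, was lower in the SMARCB1 line by a log2 value of -2.22 (SE 0.61, adjusted p = 0.0275, edgeR). Split by treatment, its difference was -3.47 (SE 0.91) under DMSO and -0.98 (SE 0.80) under Dox. FYN had 1 to 14 counts in the SMARCB1 line and 10 to 71 in the GFP line, and its call was kept without SMARCB1 DMSO replicate 1 or GFP Dox replicate 1 and lost without any other library (adjusted p = 0.0531 to 0.133).

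The T cell partners of SKAP55 were absent or at low counts in all groups. FYB1 (ADAP), APBB1IP (RIAM) and LCP2 (SLP-76) had 0 counts in all 8 libraries, PRAM1 had 1 and FYB2, an ADAP relative, had 0 to 17 per library. LAT, of the same list, did pass the filter. It had 0 and 0 counts in SMARCB1 Dox, 2 and 17 in SMARCB1 DMSO, 1 and 10 in GFP Dox, and 1 and 3 in GFP DMSO. Its Dox differences, -6.12 (log2, SE 2.19) in the SMARCB1 line and 2.39 (SE 1.37) in the GFP line, were not called. The leukocyte integrins ITGAL and ITGB2 had at most 8 and 4 counts. The general machinery of integrin activation was there instead, with ITGB1 at 684 CPM per kb, the small GTPase RAP1A at 330.4, the kindlin FERMT2 at 119.9 and talin (TLN1) at 52.9.

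Of the 32 genes of that list 19 were tested, 0 were called for either Dox effect and 1 between the lines, beside 7.35% of all genes, a share near that background. It was SIRPA, an inhibitory receptor to which SKAP2 is linked in myeloid cells. SIRPA was higher by 2.45 in the SMARCB1 line than in the GFP line (log2, SE 0.47, adjusted p = 0.00266, edgeR). SIRPA had 8.03, 4.60, 13.3 and 7.17 CPM in the SMARCB1 line and 0.331, 2.22, 1.23 and 2.02 in the GFP line, without overlap, and its difference was 2.07 without GFP Dox replicate 1 and 3.42 without GFP Dox replicate 2. The median of the list was 0.15 (log2), against 0.00 over all genes. The pathway lists were drawn up with earlier results of these data known, and no test was run on a list.

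**Figure D4:**
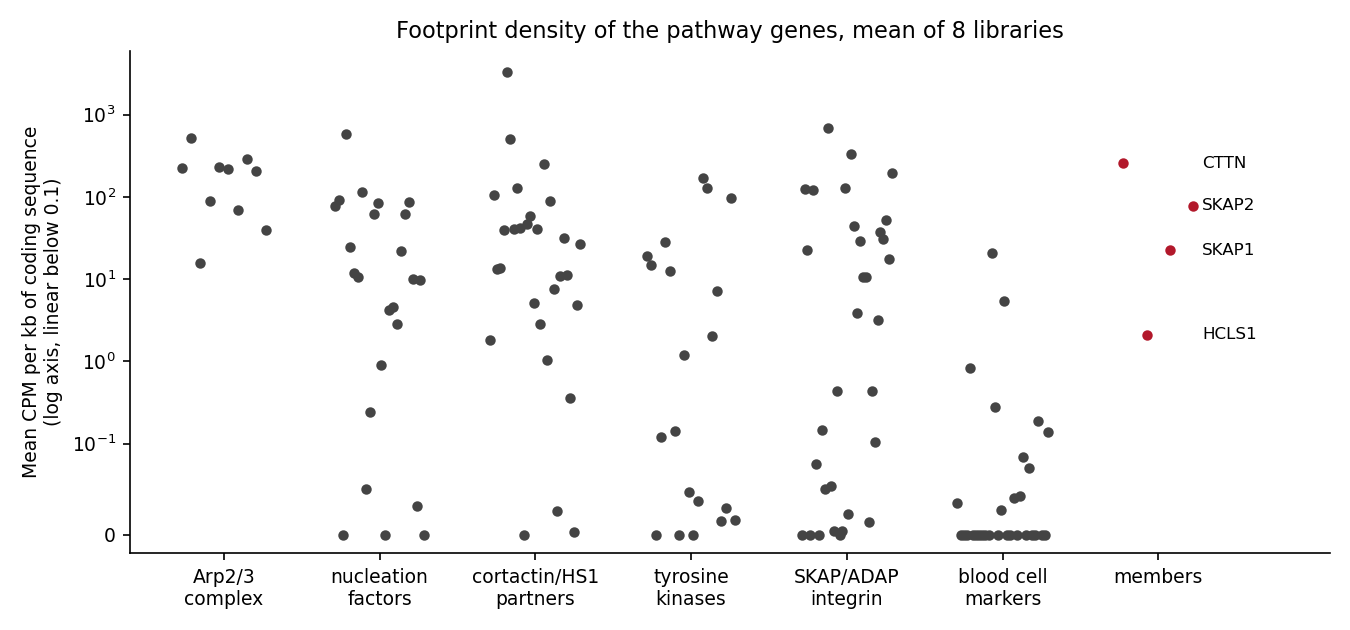
Mean footprint density over the 8 libraries (CPM per kb of coding sequence, log axis that is linear below 0.1) of each gene in 5 pathway lists and the blood cell markers, with the 4 genes of interest in red. CTTN lies among the Arp2/3 genes, HCLS1 below all 10 of them, and 18 of the 30 blood cell markers lie at 0.

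Since HCLS1 and SKAP1 are known from blood cells, markers of those cells were read in the same libraries. Of 30 markers 18 had 0 counts in all libraries and 27 had at most 10 in each. CD68, CORO1A and CD247 passed the filter, and none was called for a Dox effect. In the SMARCB1 line their Dox differences were -0.06, 0.89 and -3.01 (log2), that of CD247 on 3 and 1 counts against 9 and 27. CORO1A was lower in the SMARCB1 line by a log2 value of -1.60 (SE 0.34, adjusted p = 0.00597, edgeR), a call lost without GFP DMSO replicate 2 (adjusted p = 0.0529). The summed level of all 30 was 19.9 to 31.4 CPM in the SMARCB1 line and 21.8 to 55.2 in the GFP line, and without the 3 genes tested it was 0.418 to 1.27 and 0.823 to 1.77. The SMARCB1 Dox libraries, where HCLS1 was high, lay within the range of the other libraries in the first sum, apart from the lowest value, and the SMARCB1 line did not lie above the GFP line in either.

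SKAP1 and SKAP2 sit in like surroundings, on duplicated blocks of the genome. SNX11 and CBX1 flank SKAP1 on one side and the HOXB genes on the other, and SNX10, CBX3 and the HOXA genes flank SKAP2 in the same order. The neighbours on the SNX side of SKAP1 did not pass the test between the lines: SNX11 differed by 0.13 (log2, SE 0.19, adjusted p = 0.745) and CBX1 by 0.23 (SE 0.21, adjusted p = 0.578, edgeR). HOXB1, the nearest gene on the other side, had 0 counts, and HOXB2 differed by 1.59 (SE 0.70, adjusted p = 0.189).

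Further along, 3 of 8 HOXB genes tested were called higher in the SMARCB1 line: HOXB6 by 2.56 (log2, adjusted p = 9.914e-06), HOXB8 by 2.72 (adjusted p = 4.447e-06) and HOXB9 by 2.82 (adjusted p = 5.64e-06, edgeR). Over all genes 3.89% were called higher, and the median of the 8 was 1.65, beside 0.00 over all genes. Beside SKAP2, 0 of 9 HOXA genes tested were called, their median was -0.29, and neither SNX10 (0.05, SE 0.24) nor CBX3 (0.31, SE 0.22) was called. For Dox against DMSO in the SMARCB1 line 0 HOXB genes were called, with differences from -1.80 to -0.09 (log2) and a median of -0.54, beside -0.02 over all genes. In the GFP line their median was -0.10, beside 0.02.

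**Figure D5:**
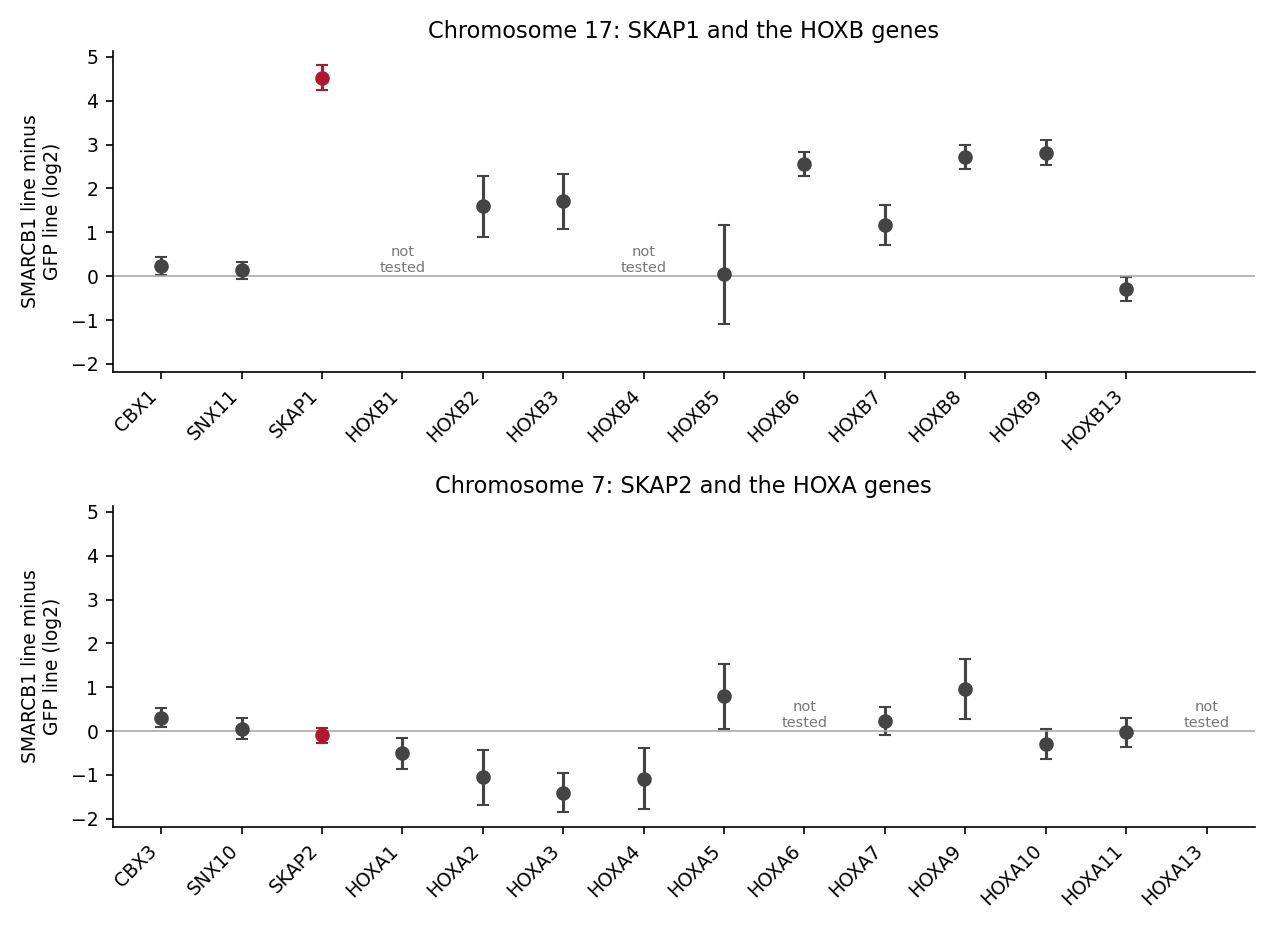
Difference between the lines (log2, SMARCB1 line minus GFP line, mean of Dox and DMSO) for genes around SKAP1 and SKAP2 in their order along the chromosome, evenly spaced. Points carry 1 standard error from the edgeR fit, SKAP genes are red, and genes below the filter are marked as not tested. SKAP1 is at 4.52 and HOXB6, HOXB8 and HOXB9 at 2.56 to 2.82, while SKAP2 is at -0.10.

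Around HCLS1, FBXO40 and ARGFX had 0 counts in all libraries. On the other side GOLGB1, a Golgi tether, differed between the lines by 0.22 (log2, SE 0.17) and was not called, and IQCB1 by 0.59 (SE 0.17, adjusted p = 0.0336), under the fold of 2. Around CTTN, PPFIA1 differed by 0.00 (SE 0.16), FADD by 0.27 (SE 0.17) and DHCR7 by -0.44 (SE 0.21), none called, and SHANK2 had 1 count in all.

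The genes whose log2 CPM followed each member most closely over the 8 libraries, which share groups and depth, were listed by Pearson's r as a description. For HCLS1 they were EXPH5 (0.969), FLT1 (0.967) and ARRB1 (0.963). EXPH5 had 209 and 141 counts in SMARCB1 Dox (17.5 and 22.4 CPM), 24 and 46 in SMARCB1 DMSO, and at most 3.55 CPM in the GFP line. FLT1, a VEGF receptor, had 15 and 9 counts in SMARCB1 Dox and 1 count in all the others together. ARRB1, a beta-arrestin, had 35.6 and 39.6 CPM against 20.9 to 25.7.

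For SKAP1 the closest genes were P4HA2 (r = 0.988), DNAJC1 (0.988) and CCDC65 (0.987). Their values between the lines, given without a test because likeness to SKAP1 chose them, were 0.97 (log2) for DNAJC1 and 0.70 for P4HA2. CCDC65 had 1.92 to 2.67 CPM in the SMARCB1 line and 0 to 0.247 in the GFP line. For CTTN they were DHX16 (0.966), TNNI1 (0.960) and LIN7B (0.956), and for SKAP2 MED19 (0.939), DBT (0.917) and UFL1 (0.912).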

How the data were processed

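Ribosome footprints of 8 libraries (4 groups of 2) were analysed. The authors deposited raw counts per gene, aligned with STAR to hg38 and counted by HTSeq (intersection-strict) over the coding sequences in GENCODE 42; tool versions, strand option, adapter trimming and removal of ribosomal RNA or duplicates are not given in the sources used here. HTSeq's total rows were left out. Symbols came from GENCODE 44 (311 IDs unmatched).

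Counts were filtered with filterByExpr, scaled with TMM and fitted over all libraries by group with edgeR 4.0.16 (glmQLFit, R 4.3.3; calls at adjusted p below 0.05 and fold above 2), after a check on simulated data. CPM uses TMM-scaled totals. Because the labels do not say that libraries came from separate cultures, p-values measure only the spread between these libraries. Likeness used log2 CPM with a prior count of 2. Stretches of 28 bases were searched in hg38. The planned tests of HCLS1 between the lines and for GFP Dox were not used. Its filter and its mean between the lines rest on the contrast that chose it, and its counts in the GFP line were few. Members and lists were chosen with earlier results of these data known. Named genes were the members, SMARCB1, direct partners, called and densest list genes, the 3 most alike and the 2 nearest on each side; other list genes were named after their values were seen. Alternatives were RLE or library-size scaling, DESeq2 1.42.0, other filters, fewer groups, robust dispersion, a replicate block and single libraries left out.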

Additional observations from a re-analysis of the deposited data

How the results depend on the processing

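Low counts limit HCLS1 outside SMARCB1 Dox and SKAP1 in the GFP line. Neither had a value at 10 or more counts in every library, which drops both, and the comparison of the lines cannot be fitted on fewer groups. Against 2 genes called for SMARCB1 Dox, DESeq2 called 34, no filter beyond 1 count 46, a minimum of 10 counts per library 1, a fit on both groups alone 5, and single libraries left out 1 to 2. Against 0 for GFP Dox, no filter called 14 and leaving out 1 library 0 to 141, the highest without GFP Dox replicate 2. Against 816 between the lines, at least 10 counts in every library called 419, and leaving out 1 library 685 to 978.

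The GFP Dox difference of CTTN was -0.0313 (log2) with library size only and ran from -0.0223 to 0.14 with 1 library left out, negative without GFP Dox replicate 1. That of SKAP2 ran from -0.45 to 0.0886, positive without GFP Dox replicate 2, and its difference between the lines from -0.22 to 0.0472, positive without GFP Dox replicate 1. None of these passed the test in any setting. For HCLS1 the GFP Dox difference ran from -5.11 (without GFP Dox replicate 2) to -0.40, the SMARCB1 Dox difference from 4.60 to 6.01, highest without SMARCB1 DMSO replicate 2, and the value between the lines from 2.42 to 4.82, highest without GFP Dox replicate 2. For CTTN the SMARCB1 Dox difference ran from 0.07 to 0.40. SKAP1 between the lines was called in all 14 alternatives that gave a value. The cause of these shifts was not tested.

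The main fit held no replicate block, since the labels name no pairing. Deviations from the group means were correlated between groups by replicate number, at 0.0454 to 0.28 and over 0.1 in 5 of 6 pairs of groups. A shared replicate effect is thus possible and was not tested. Genes at an unadjusted p below 0.05 (edgeR) went from 552 to 828 for SMARCB1 Dox with a block. They went from 240 to 360 for GFP Dox and from 2559 to 3042 between the lines. With the number as a replicate block, calls were 13 for SMARCB1 Dox, 0 for GFP Dox and 839 between the lines, SKAP1 between the lines was 4.54 (adjusted p = 9.22e-08, edgeR), and no tested call of a member changed.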
